A study of Mus musculus with 6 samples.

Results

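The core autophagy machinery is described here as a set of 35 genes, chosen by name: every row of the deposited table whose symbol is on the list was taken. All 35 were found among the 14992 genes of the table, and all 35 passed the filter on low counts that left 12806 genes to test. Their read counts ran from 147 to 20607 per library.

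Autophagy encloses a portion of cytoplasm in a growing double membrane, closes it and delivers it to the lysosome. The ULK kinase complex starts the process, the class III PI3K complex marks the membrane with a phosphoinositide, and 2 ubiquitin-like conjugation reactions attach Atg8 proteins (LC3 and GABARAP) to the lipid, where cargo receptors bind them. Growth factor input through class I PI3K, AKT and mTORC1 is known to restrain the ULK complex, largely by phosphorylation, while FOXO and TFEB transcription factors are known to act on the genes themselves. In blood, autophagy is best known for clearing mitochondria from maturing red cells and for preserving stem cells.

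The samples were bone marrow from irradiated C57/BL6 mice that had received whole marrow of Dnmt3a knockout donors. Both groups carry the knockout: 3 libraries came from recipients given vehicle (replicates 1, 2 and 3) and 3 from recipients given a compound that inhibits class I PI3K alpha and beta at 75 mg/kg (replicates 1, 3 and 5), each for 21 days. The labels call the transplanted cells leukaemic, and they give neither the ages or sexes of the mice, nor how Dnmt3a was deleted, nor how many host cells remained. They do not state that each library is a separate mouse, so a p-value measures only how these libraries spread, and that spread may be technical. The question a comparison of the 2 groups addresses is what PI3K inhibition does to Dnmt3a knockout marrow, and here it was read for the autophagy genes.

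Libraries held 28198638 to 59384880 counts. Dnmt3a, the targeted gene, was counted in every library, with 15.4 to 24.9 CPM (read counts scaled to a common library size, with sizes adjusted by edgeR's TMM method). Because both groups carry the knockout, and gene counts do not show which exons are left, it checks no label. Vehicle 1 stood apart: over all tested genes its values lay at a median absolute distance of 0.33 log2 units from the mean of vehicles 2 and 3, against 0.14 between vehicles 2 and 3, and over the autophagy genes the same distances were 0.29 and 0.14. Genes of several cell types moved between the groups. The summed level of 17 macrophage markers ran from 2837 to 9604 CPM in vehicle and from 1044 to 1378 CPM in inhibitor libraries (6 of 17 called lower; vehicle 1 was the 9604, the other vehicles 2837 and 3157), and that of 13 neutrophil markers from 40276 to 65634 and from 103490 to 124760 CPM (2 of 13 called higher). Of 9 monocyte markers 2 were called lower, and of 10 B lymphoid markers 3 were called higher. The 9 erythroid markers had 0 calls in edgeR, 0 of them with p below 0.05 before adjustment. They summed to 1382 to 4695 CPM in vehicle and 821 to 1798 CPM in inhibitor libraries. Vehicle 1 was the 4695, while vehicles 2 and 3, at 1382 and 1539 CPM, lay within the inhibitor range. Of 7 stem and progenitor markers 2 were called higher, of 6 eosinophil and basophil markers 3 higher, and of 8 T and NK markers 1 lower. The 3 eosinophil and basophil calls were Epx, Prg2 and Prg3. The rest of that list, Mcpt8, Prss34 and Cpa3, had log2 fold changes (inhibitor minus vehicle) of -0.14, 0.03 and 0.05. Of 7 stromal markers 0 were called, with 5 of the 7 lower before adjustment. Their sum was 616, 233 and 237 CPM in vehicles 1, 2 and 3, and 160, 171 and 297 CPM in inhibitors 1, 3 and 5. None of these markers was at 0 in any library, which does not by itself show that each lineage was present. The part of cell composition in the values below was not tested, and in whole marrow fewer cells of a type and less RNA per cell cannot be told apart.

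None of the 35 autophagy genes passed the edgeR quasi-likelihood test at a Benjamini-Hochberg adjusted p under 0.05, where 0.633% of all tested genes were called higher and 1.19% lower. The nearest was Atg12 with an adjusted p of 0.0615. Most values were nevertheless above 0: 29 of 35 log2 fold changes (inhibitor minus vehicle) were positive against 50.0% of all tested genes, and the median was 0.22 against 0.00093 over all tested genes. Before adjustment, p was below 0.05 for 11 members in the higher direction and 1 in the lower, where the background is 9.68% and 11.9%. The 3 inhibitor libraries all lay above the 3 vehicles in 12 members and all below in 2, against 14.4% and 16.2% of all tested genes. The largest values were modest, with 4 members at 1.5-fold or more and 1, Atg16l2, at 2-fold.

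The call depended on the test and on vehicle 1. The DESeq2 Wald test called 6 members higher and 0 lower (background 4.91% and 7.24%), namely Rb1cc1, Atg14, Atg12, Atg16l2, Map1lc3b and Gabarapl2. The authors' deposited table gives an adjusted p under 0.05 to these same 6 and to no other member, where it does so for 4.24% of genes in the higher and 6.57% in the lower direction. Without vehicle 1, edgeR called 6 members higher and 0 lower (background 3.10% and 4.89%): Atg12, Atg16l2, Map1lc3b, Gabarapl2, Wipi1 and Calcoco1, of which 4 are also among the DESeq2 calls. The median of the members was then 0.27, and 28 values were positive (52.9% of all tested genes). Loosening the edgeR threshold to an adjusted p under 0.10 called 4 members higher and 0 lower (background 3.30% and 4.95%): Atg12, Map1lc3b, Gabarapl2 and Atg16l2. The limma voom fit with quality weights called 15 higher and 0 lower (background 10.7% and 11.6%). It weighted vehicles 1, 2 and 3 by 0.161, 1.5 and 1.61, and inhibitors 1, 3 and 5 by 0.633, 4.40 and 0.928.

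**Figure D1:**
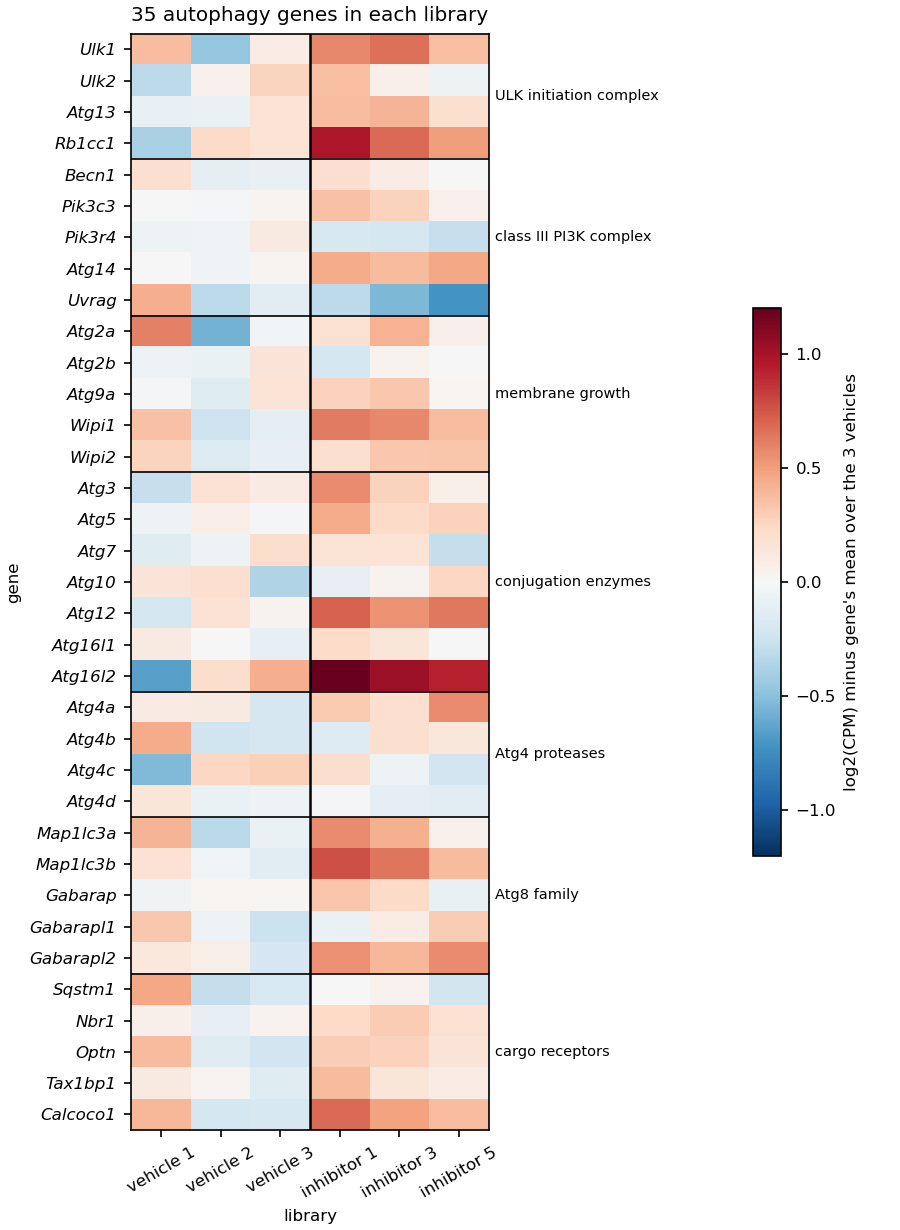
Each row is 1 of the 35 genes, grouped by role, and each column a library; colour gives log2(CPM) minus the gene's mean over the 3 vehicles. The inhibitor columns are mostly red, with a median over the genes of 0.32, 0.27 and 0.13 in inhibitors 1, 3 and 5 against 0.10, -0.06 and -0.04 in vehicles 1, 2 and 3.

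Inhibitor 1 was the highest inhibitor library in 21 of the 35 genes and inhibitor 5 the lowest in 25. Vehicle 1 lay above both other vehicles in 18 genes, below both in 11 and between them in 6. For Ulk1 the vehicle 1 value was the highest vehicle, and for Atg16l2 it was the lowest.

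Initiation genes came out on the positive side: all 4 members of the ULK complex had values above 0 (median 0.41), 3 of them with p below 0.05 before adjustment. Rb1cc1 encodes FIP200, the scaffold of the complex. Its CPM were 63.1 in vehicle 1, 97.1 in vehicle 2 and 92.8 in vehicle 3, against 163 in inhibitor 1, 133 in inhibitor 3 and 117 in inhibitor 5, the order kept for all genes that follow. Every inhibitor library was above every vehicle, with a log2 fold change of 0.70 and an SE of 0.20 (n = 3 in each group, edgeR adjusted p = 0.105). Without vehicle 1, the lowest library, the log2 fold change was 0.53 (edgeR adjusted p = 0.0773). Values given below with ± are log2 fold changes with their SE from the same test. The gene on chromosome 1 (6206197 to 6276648, GRCm38, plus strand) shares 3.80% of its annotated exon bases with an antisense gene. Ulk1, the kinase itself, had 89.9, 50.7 and 74.3 CPM in the vehicles and 104, 109.8 and 89.7 CPM in the inhibitor libraries. Vehicle 1 reached the level of inhibitor 5, the groups overlapped, and the value of 0.50 ± 0.21 (adjusted p = 0.230) became 0.69 without vehicle 1 (adjusted p = 0.0584) and 0.30 without vehicle 2. Atg13, the adaptor that mTORC1 phosphorylates, ran from 40.6 to 48.3 CPM in vehicle and from 49.0 to 57.3 CPM in inhibitor libraries without overlap (0.32 ± 0.13, adjusted p = 0.203). The paralog Ulk2 ran from 34.5 to 51.3 CPM in vehicle and from 40.9 to 54.8 CPM in inhibitor libraries. Its groups overlapped, and its value of 0.11 turned to -0.032 without vehicle 1.

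The class III PI3K complex, a lipid kinase distinct from the class I enzymes that the compound targets, had 3 values above 0 and 2 below, with 0 called. Atg14, the subunit that directs the complex to autophagosome formation, had 13.2, 12.7 and 13.4 CPM in the vehicles and 17.9, 17.1 and 18.1 CPM in the inhibitor libraries. Both groups were tight and did not overlap, and the value was 0.43 ± 0.13 (edgeR adjusted p = 0.117) with 0.43 also without vehicle 1. Atg14 lies on chromosome 14 (47540893 to 47570649, GRCm38, minus strand), with 5.53% of its exon bases shared with an antisense gene. Uvrag, the subunit found in the endosomal form of the complex in place of Atg14, went the other way, with 161, 96.2 and 109 CPM against 95.7, 82.1 and 72.7 CPM. All 3 inhibitor libraries lay below all vehicles, but vehicle 2 and inhibitor 1 nearly met, and the value of -0.55 ± 0.21 (adjusted p = 0.197) was -0.30 without vehicle 1. Of its exon bases 17.6% are shared with an antisense gene. Uvrag was the only member with a negative value and p below 0.05 before adjustment. The catalytic subunit gene Pik3c3 ran from 44.2 to 45.9 CPM in vehicle and from 46.7 to 57.4 CPM in inhibitor libraries, a value of 0.23 ± 0.12 (adjusted p = 0.301). The regulatory subunit gene Pik3r4 ran from 31.4 to 35.4 and from 27.1 to 28.8 CPM, a value of -0.23 ± 0.12 (adjusted p = 0.302). Neither gene's groups overlapped, but neither had p below 0.05 before adjustment, and for Pik3c3 the groups nearly met (45.9 and 46.7 CPM). Over all tested genes, 14.4% did not overlap in the higher and 16.2% in the lower direction. Becn1, beclin 1, the shared core subunit, stood at 158, 128 and 129 CPM against 158, 146 and 138 CPM, a value of 0.09 ± 0.13 that ran from 0.039 to 0.20 with a library left out (vehicle 2 and vehicle 1). Its groups overlapped. In the annotation used here (GENCODE M21), 43.9% of its exon bases are shared with Cntd1 on the other strand. These libraries, made with a kit that does not mark strand, cannot separate reads from shared bases. The deposited length of Becn1 is 2031 bases, against 7065 exon bases in GENCODE, so the shared part of its count is not known.

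Of the genes that feed and shape the growing membrane, Wipi1 had the largest value. It encodes a propeller protein that reads the lipid made by the class III complex. Vehicles stood at 68.1, 45.0 and 49.7 CPM and inhibitor libraries at 82.4, 79.5 and 68.9 CPM, so that vehicle 1 and inhibitor 5 differed by little while the groups did not overlap. The value was 0.50 ± 0.18 (edgeR adjusted p = 0.160) and 0.70 without vehicle 1 (adjusted p = 0.0186). Wipi2, its paralog, which recruits the Atg16l1 complex, ran from 67.1 to 90.3 CPM in vehicle and from 85.7 to 94.9 CPM in inhibitor libraries. Only vehicle 1 reached the inhibitor range, and the value of 0.27 ± 0.14 was 0.42 without it. Atg9a, the scramblase of the seed vesicles, ran from 91.7 to 113 and from 103 to 127 CPM (0.21 ± 0.14), with 32.6% of its exon bases shared with other genes. The lipid transfer genes Atg2a and Atg2b had values of 0.15 ± 0.28 and -0.06 ± 0.13, with overlapping groups. Atg2a was the member for which vehicle 1 mattered most in this group, with 120.0 CPM there against 53.3 and 77.0 CPM in vehicles 2 and 3, and its value without that library was 0.50.

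**Figure D2:**
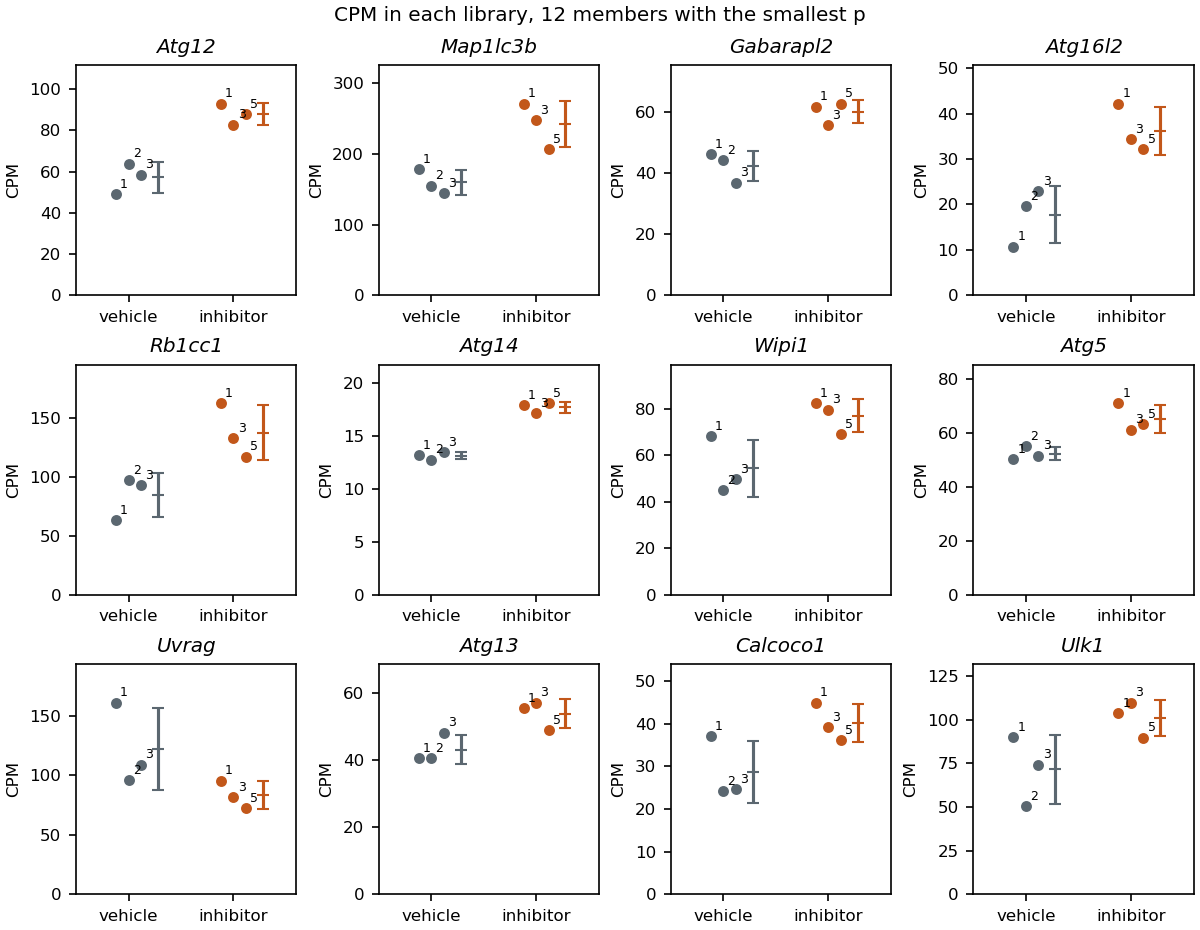
CPM in each library (points, with the replicate number) for the 12 members with the smallest p, with the mean and SD of each group (n = 3) beside the points. For Atg12, Atg14, Gabarapl2, Map1lc3b, Rb1cc1 and Atg16l2 the inhibitor points lie clear above the vehicle points, while for Uvrag they lie below.

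The conjugation enzymes held the member with the smallest p and the one with the largest fold. Atg12, the ubiquitin-like protein joined to Atg5, stood at 49.1, 63.9 and 58.5 CPM in the vehicles and at 93.0, 82.8 and 88.0 CPM in the inhibitor libraries. The lowest inhibitor library was well above the highest vehicle, and the value was 0.62 ± 0.13 (edgeR adjusted p = 0.0615), a fold of 1.54. Over the 13 other settings tried its adjusted p ran from 0.0033 to 0.392 and its value from 0.49 to 0.71. Atg16l2, a paralog of Atg16l1 with a less settled role, had 10.7, 19.6 and 22.9 CPM against 42.2, 34.3 and 32.2 CPM. No library overlapped, and the value of 1.03 ± 0.28 (adjusted p = 0.0930, fold 2.04) was 0.77 without vehicle 1, the lowest library. Atg16l2 lies on chromosome 7 (101263034 to 101302251, GRCm38, minus strand), with 0.295% of its exon bases shared with Fchsd2. Atg5, the partner of Atg12, went from 50.2, 55.1 and 51.5 to 71.0, 61.2 and 63.3 CPM, also without overlap (0.32 ± 0.11, adjusted p = 0.162). Atg16l1, which carries the Atg12-Atg5 conjugate to the membrane, ran from 28.5 to 32.9 and from 30.8 to 35.7 CPM (0.12 ± 0.12), with overlapping groups. Atg7, the E1-like enzyme that both conjugation reactions need, had 70.7, 75.2 and 90.6 CPM against 88.0, 88.0 and 64.2 CPM. The groups overlapped throughout, and its value of 0.02 ± 0.17 was -0.05 without vehicle 1. Of the E2-like enzymes, Atg3 ran from 99.9 to 136 and from 127 to 179 CPM (0.30 ± 0.18), and Atg10 from 4.15 to 6.10 and from 4.98 to 6.31 CPM (0.05 ± 0.23). Both had overlapping groups, and the value of Atg3 was 0.18 without vehicle 1 and 0.17 without inhibitor 1.

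Promoter windows of 300 bases (250 before and 50 after the RefSeq start site, GRCm38.p6, first listed start of each gene) were found for 29 of the 35 members. On either strand, CACGTG, the E-box core that TFEB and MYC family factors bind, was in 4 of the 29 windows (13.8%), against 10.1% of the 10081 tested genes with a window and 7.24% of all 27018 windows. The longer letters TCACGTG, a form favoured by TFEB that contains the first, were in 3 of 29 (10.3%, against 5.99% of tested genes). The FOXO letters TGTTTAC were in 0 of 29 windows, against 2.34% of tested genes. The ratio of observed to expected CpG had a median of 0.754 in the 29 windows, against 0.756 for tested genes. The 4 genes with the E-box letters were Atg3, Atg5, Atg7 and Atg14, of which the first 3 are conjugation enzymes, and the letters in Atg14 span the start site itself. The stretches before the start site of the other three are shown 5′ to 3′ on the gene's strand (all plus), to give the bases around each match, with the E-box core in capitals, at chr16:45158715-45158783, chr10:44268305-44268338 and chr6:114670944-114670989.
Atg3: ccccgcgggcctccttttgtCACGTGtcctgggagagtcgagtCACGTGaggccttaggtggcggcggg
Atg5: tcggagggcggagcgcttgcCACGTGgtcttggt
Atg7: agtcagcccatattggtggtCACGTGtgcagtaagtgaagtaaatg
The Atg3 and Atg5 stretches lie before the annotated gene and overlap no exon. The Atg7 stretch lies inside the annotated span of the gene, outside its exons. A match of letters is not evidence of binding, and the values of these genes with the inhibitor ran from 0.02 for Atg7 to 0.43 for Atg14, with none called by edgeR over all 6 libraries. The windows of Map1lc3b, Gabarapl2 and Atg16l2 held none of the 3 motifs, as did every window except those of Atg3, Atg5, Atg7 and Atg14. No window was found for Rb1cc1, Becn1, Pik3c3, Atg12, Atg16l1 or Map1lc3a.

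All 5 Atg8 family genes had positive values (median 0.33, and 0.56 without vehicle 1), with 2 at p below 0.05 before adjustment. Map1lc3b encodes LC3B, the usual marker of autophagosomes. It had 179, 155 and 145 CPM in vehicles, against 272, 249 and 207 CPM with the inhibitor. All inhibitor libraries exceeded all vehicles, inhibitor 5 by the least, and the value was 0.60 ± 0.15 (edgeR adjusted p = 0.0810), or 0.69 without vehicle 1 (adjusted p = 0.0321). It lies on chromosome 8 (121590361 to 121598760, plus strand), with 0.772% of its exon bases shared with another gene. Gabarapl2, which encodes GATE-16, had 46.2, 44.4 and 36.9 CPM against 61.8, 55.8 and 62.9 CPM, again without overlap. Its value was 0.50 ± 0.13 (edgeR adjusted p = 0.0849), and 0.57 without vehicle 1 (adjusted p = 0.0355). The gene has 3 processed pseudogenes with 96.6% to 99.4% identity over 349 to 352 bases, so its count is uncertain where reads fit several copies. Gabarap, the most abundant member of the family, had 314, 328 and 328 CPM against 407, 378 and 304 CPM. The vehicles agreed closely, inhibitor 5 lay below them and the other two above. Its value of 0.17 ± 0.14 was 0.083 without inhibitor 1 and 0.28 without inhibitor 5. Gabarapl1, often cited as a FOXO target, had 51.4, 39.4 and 34.3 CPM against 38.9, 43.8 and 50.8 CPM, and Map1lc3a 18.6, 11.1 and 13.2 against 20.7, 18.7 and 14.4 CPM. For both the groups overlapped, with values of 0.10 ± 0.18 and 0.33 ± 0.23. The value of Map1lc3a was 0.56 without vehicle 1 and 0.18 without vehicle 2, that of Gabarapl1 0.27 without vehicle 1, and 28.3% of the exon bases of Gabarapl1 are shared with another gene.

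The Atg4 proteases, which trim Atg8 proteins before conjugation and release them afterwards, showed no common direction. Their values were 0.37 ± 0.16 for Atg4a, 0.03 ± 0.21 for Atg4b, -0.06 ± 0.25 for Atg4c and -0.09 ± 0.12 for Atg4d. Vehicle and inhibitor ranges overlapped for Atg4b (53.9 to 86.7 and 57.4 to 72.6 CPM), Atg4c (10.6 to 18.8 and 13.1 to 17.8 CPM) and Atg4d (42.9 to 49.9 and 41.2 to 44.9 CPM), which shares 19.3% of its exon bases with another gene. Atg4a, on the X chromosome, had 16.6, 16.7 and 13.5 CPM in vehicle and 19.3, 17.9 and 23.0 CPM in inhibitor libraries, without overlap. An annotated copy, Atg4a-ps, is 99.3% identical over 2115 of the 2202 bases of its transcript, so the count of Atg4a is uncertain. Atg4b and Atg4c depended on vehicle 1 in opposite ways: without that library the value of Atg4b was 0.29 and that of Atg4c -0.28.

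Cargo receptors link ubiquitinated or membrane cargo to Atg8 proteins. Sqstm1, which encodes p62, had 282, 167 and 180 CPM in the vehicles and 204, 209 and 176 CPM in the inhibitor libraries. Vehicle 1 was the highest of the 6 libraries and the other two vehicles the lowest along with inhibitor 5, and the value of -0.09 ± 0.21 (edgeR adjusted p = 0.827) was 0.18 without vehicle 1. Of its exon bases 17.3% are shared with another gene. Calcoco1, a receptor for parts of the endoplasmic reticulum and Golgi, had 37.1, 24.3 and 24.6 CPM against 45.0, 39.2 and 36.2 CPM. Vehicle 1 alone overlapped the inhibitor libraries, and the value moved from 0.49 ± 0.20 (adjusted p = 0.211) to 0.72 without it (adjusted p = 0.0204). Nbr1, an aggregate receptor related to p62, had 111, 98.9 and 109 against 126, 131 and 121 CPM with no overlap (0.24 ± 0.11, adjusted p = 0.246). Optn, a receptor for mitochondria and bacteria, ran from 40.4 to 61.6 and from 52.8 to 58.3 CPM, and its value of 0.22 ± 0.18 was 0.43 without vehicle 1, the highest library, 0.14 without vehicle 2 and 0.11 without vehicle 3. Tax1bp1, a receptor for aggregates and other ubiquitinated cargo, ran from 304 to 362 and from 356 to 436 CPM with overlapping groups, and its value of 0.20 ± 0.14 was 0.14 without vehicle 3 and 0.12 without inhibitor 1.

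**Figure D3:**
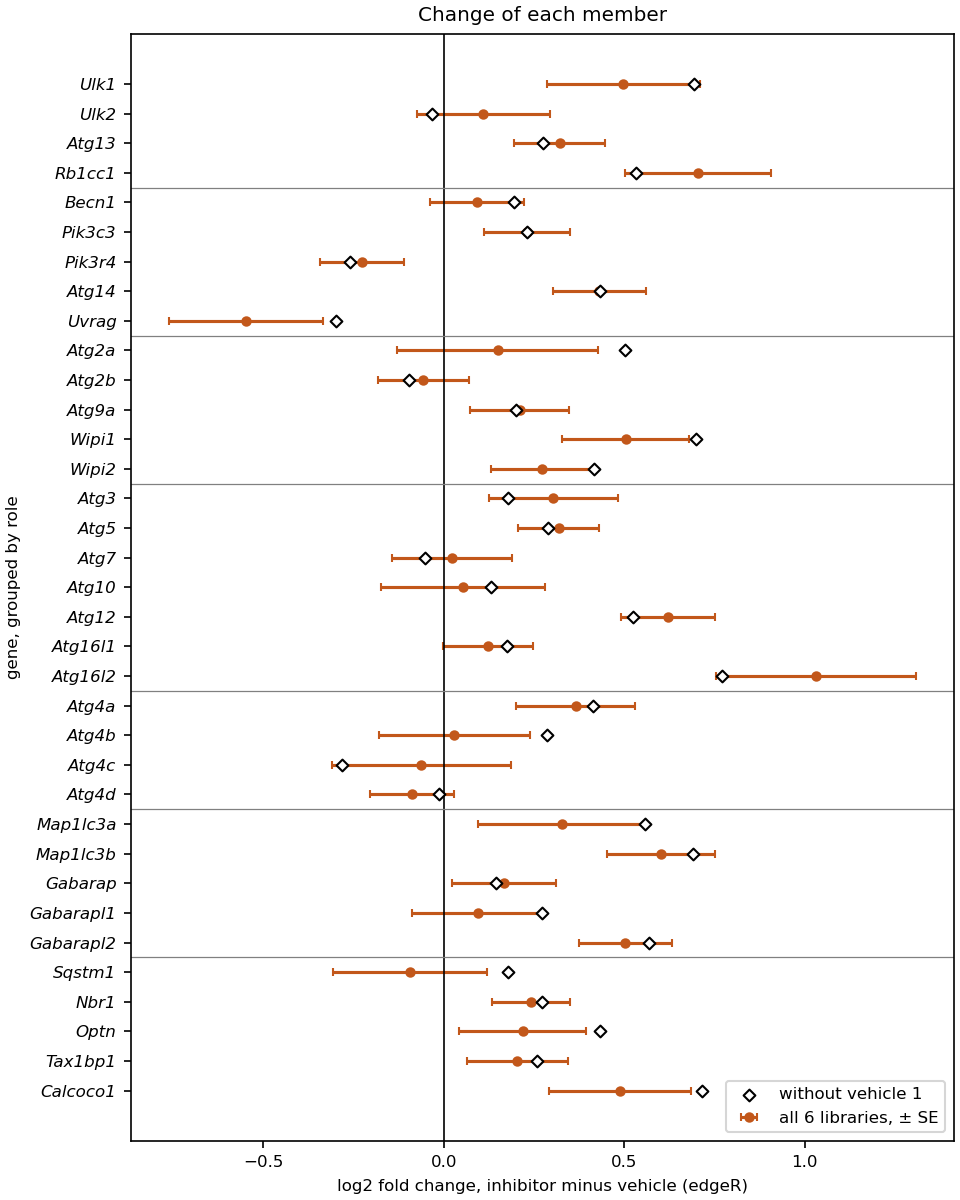
Log2 fold change (inhibitor minus vehicle, edgeR) of each member over all 6 libraries with its SE (orange) and without vehicle 1 (open diamonds), grouped by role. 29 of the 35 values lie right of 0, from -0.55 for Uvrag to 1.03 for Atg16l2, and the diamonds of Atg2a, Atg4b, Sqstm1 and Uvrag are among those that stand more than 1 SE from the full value.

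Levels can be compared between genes only per length, here as CPM divided by the deposited gene length in kilobases (RPKM). The median vehicle mean of the members was 19.4 RPKM against 8.74 over all tested genes. Their percentiles among tested genes ran from 31.7 for Atg10 to 98.3 for Gabarap, with a median of 69.8. Gabarap led at 288 ± 7.22 RPKM in vehicle and 324 ± 47.3 in inhibitor libraries (SD, n = 3). Sqstm1 (103 ± 30.9), Tax1bp1 (103 ± 9.10) and Map1lc3b (93.4 ± 10.2) followed in vehicles, and their ranges overlapped. In inhibitor libraries Map1lc3b was second with 142 ± 19.0 RPKM. At the low end were Atg14 with 3.80 ± 0.10 and Atg10 with 3.35 ± 0.67 RPKM in vehicle. The levels spanned the members with few gaps, since in only 5 of 34 neighbouring pairs did every vehicle library of one gene exceed every vehicle library of the next. Initiation genes lay in the lower part of the order, with vehicle means from 7.46 RPKM for Ulk2 to 13.8 for Ulk1, a range in which Map1lc3a (13.7) and Calcoco1 (10.2) also lay.

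**Figure D4:**
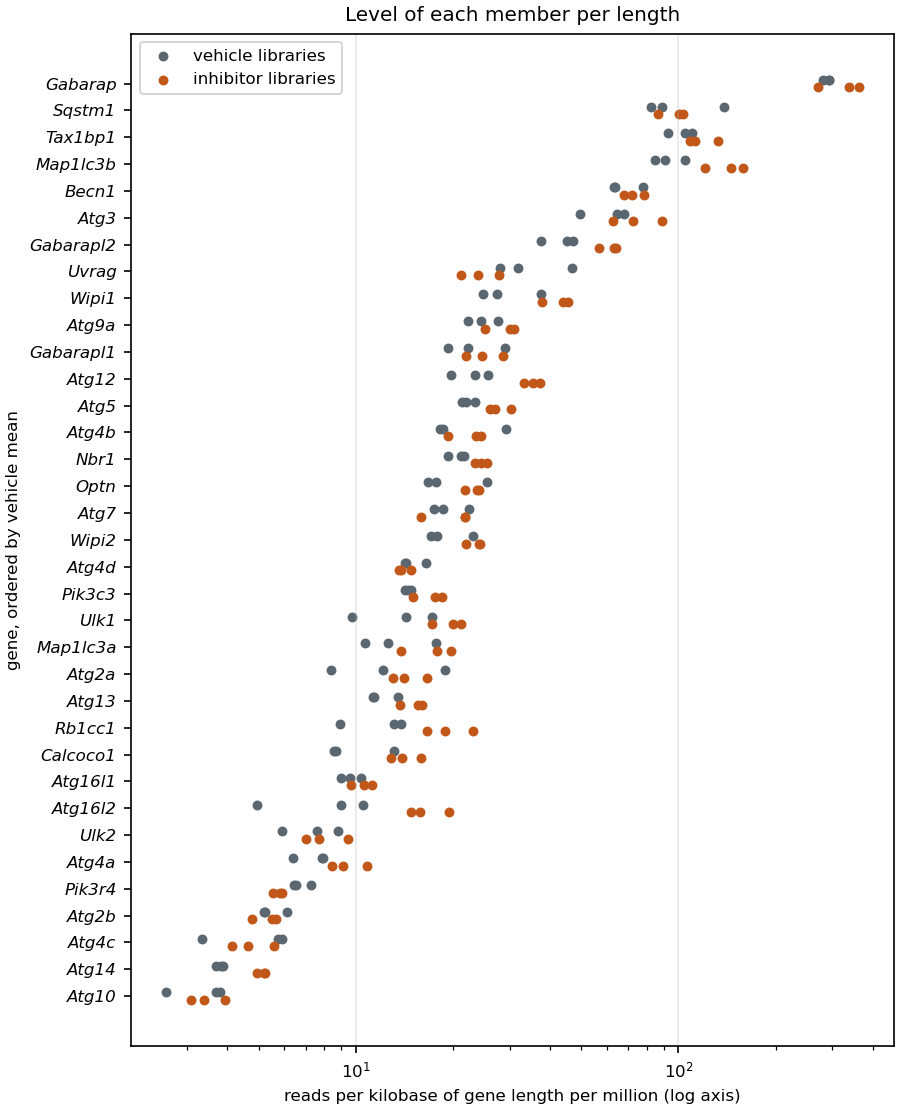
RPKM (log axis) of each member in the 3 vehicle (grey) and 3 inhibitor (orange) libraries, ordered by the vehicle mean. Gabarap stands alone at the top, and the inhibitor points of Atg16l2, Atg12 and Rb1cc1 stand to the right of all their vehicle points.

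Within families, the balance between paralogs was read as each gene's share of its family's summed RPKM in a library, as a description without a test. In the Atg8 family the share of Map1lc3b was 21.9%, 19.7% and 19.0% in the vehicles against 25.3%, 25.0% and 24.3% with the inhibitor, without overlap. The share of Gabarap went the other way, from 58.5% to 65.4% in vehicle and from 54.4% to 57.9% in inhibitor libraries. These groups did not overlap either, but vehicle 1 (58.5%) and inhibitor 1 (57.9%) nearly met. The mean level of Gabarap itself was not lower, at 288 RPKM in vehicle and 324 RPKM in inhibitor libraries. The largest shift was in the Atg16l pair: Atg16l2 made up 32.4%, 48.4% and 54.1% of the pair in the vehicles and 63.5%, 59.9% and 60.6% in the inhibitor libraries. Without scaling by length, as shares of CPM, it made up 24.6%, 39.0% and 44.5% against 54.2%, 50.4% and 51.1%. On both scales the groups did not overlap and Atg16l2 was the larger of the pair in all 3 inhibitor libraries, while in vehicle 3 it was the larger only per length. Calcoco1 took 3.69% to 4.25% of the cargo receptor sum in vehicle and 4.97% to 5.35% in inhibitor libraries. The shares of Ulk1 (56.2% to 74.5% against 67.9% to 73.4%), Wipi1 and Atg4b overlapped between groups.

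**Figure D5:**
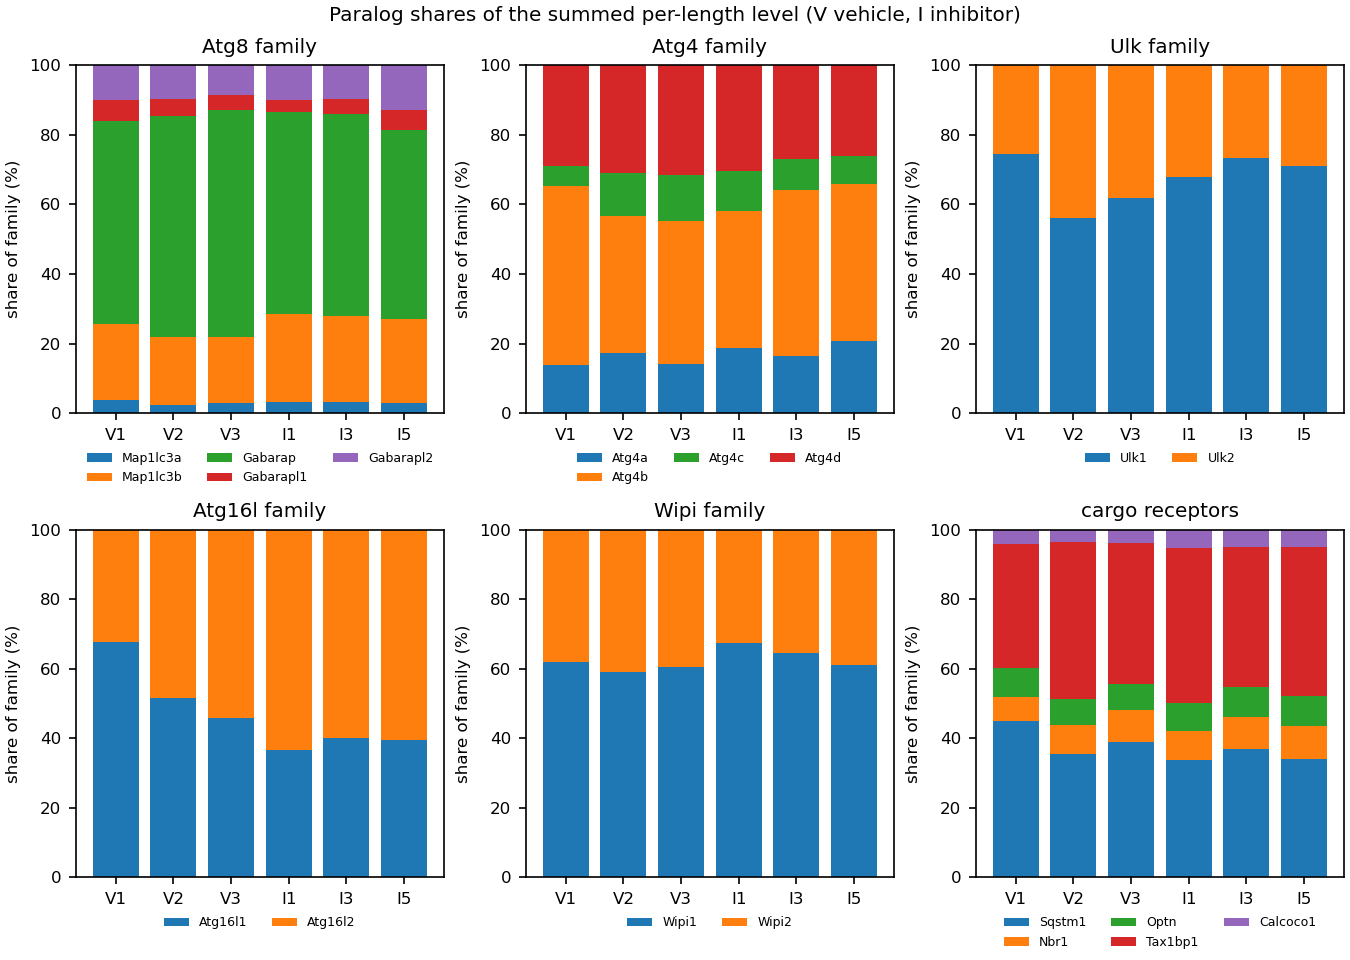
Share (%) of each paralog in its family's summed RPKM, in vehicles 1, 2 and 3 (V) and inhibitors 1, 3 and 5 (I), for 6 families. The Map1lc3b band is wider in every inhibitor library (24.3% to 25.3%) than in every vehicle (19.0% to 21.9%), and the Atg16l2 band likewise (59.9% to 63.5% against 32.4% to 54.1%).

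Genes that work with the core machinery were read from 8 further lists with 79 different genes, of which 74 were tested. The edgeR test called 1 of them higher and 0 lower (background 0.633% and 1.19%), 10 had higher and 5 lower values with p below 0.05 before adjustment (9.68% and 11.9%), and their median was 0.05. The 1 was Wdr45, which encodes WIPI4, a propeller protein of the same family as Wipi1 and Wipi2 that binds Atg2. Wdr45 rose from 24.5, 22.9 and 25.1 CPM in the vehicles to 48.0, 42.7 and 38.6 CPM in the inhibitor libraries. Vehicles agreed closely, all inhibitor libraries were above them, and the value of 0.83 ± 0.13 (edgeR adjusted p = 0.0403) is a fold of 1.78. Its value was 0.84 without vehicle 1 (adjusted p = 0.0139), and the call was lost when any of the other 5 libraries was left out, with adjusted p up to 0.170. Wdr45 lies on the X chromosome (7714333 to 7728206, plus strand), and 24.7% of its exon bases are shared with the overlapping gene Gm45208, so its count is uncertain there. The authors' deposited table gives it 0.84 on the log2 scale (adjusted p = 1.2e-05). The list that held Wdr45, 7 lipid transfer and phagophore partners, had a median of 0.02 with 4 values above 0. Only Wdr45 in that list had p below 0.05 before adjustment.

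Among the other partners, Atg101, the fourth component of the ULK complex, came next at 43.6, 45.4 and 46.3 CPM against 69.2, 69.2 and 58.7 CPM. The groups were clearly apart, but the value of 0.54 ± 0.11 did not pass (edgeR adjusted p = 0.0615). Of the 7 initiation and PI3K complex partners tested, 0 were called and the median was -0.02. Before adjustment, 1 had a higher value with p below 0.05, Atg101, and 1 a lower, Bcl2 (-0.42 ± 0.14, edgeR adjusted p = 0.147). In the list of selective receptors Bnip3l, the mitophagy receptor NIX of maturing red cells, had 0.56 ± 0.15 (adjusted p = 0.0859), Ncoa4, the ferritin receptor, 0.46 ± 0.14, and Ccpg1, a receptor for the endoplasmic reticulum, 0.76 ± 0.26, while Tex264, of the same compartment, had -0.71 ± 0.19 (adjusted p = 0.0926). Of the 13 receptors tested, 0 were called, 3 had higher and 1 lower values with p below 0.05 before adjustment, and the median was 0.13.

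Regulators upstream of the machinery were not uniformly directed. Of 8 transcription factor genes 0 were called, 1 had a higher and 2 lower values with p below 0.05 before adjustment, with a median of -0.16. Mitf, a relative of TFEB, had -0.71 ± 0.20 (edgeR adjusted p = 0.105), Atf4 -0.31 ± 0.12 and Foxo4 0.39 ± 0.13. Of 17 mTORC1 and AMPK control genes 0 were called, with 1 higher before adjustment (Prkaa2, 0.249 to 1.27 CPM) and a median of 0.12 (0.19 without vehicle 1). The 13 fusion genes, which join the autophagosome to the lysosome, had a median of -0.04 with 1 higher (Stx17, 0.36 ± 0.13) and 1 lower (Vps41, -0.34 ± 0.13) by the same unadjusted threshold and 0 called. The list of LC3-associated phagocytosis, a branch that needs the phagocyte NADPH oxidase, had a median of 0.45 over 6 genes (0.28 without vehicle 1) with 0 called, led by the oxidase subunit gene Cyba (0.49 ± 0.12, adjusted p = 0.0845), and 2 of the 6 passed before adjustment. The oxidase genes of that list are abundant in neutrophils, whose summed markers were higher in every inhibitor library than in every vehicle. Whether this bears on the values of the list was not tested.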

How the data were processed

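RNA from 6 marrow samples was sequenced after SMART-Seq v4 cDNA synthesis and Nextera XT library preparation, per the labels' protocols. STAR, featureCounts and mm10 are named as aligner, counter and build in the submitters' processing notes, without versions. The deposited table holds, for 14992 genes, raw read counts in each library and, per the file headers, a gene length and the authors' own fold change (a ratio), log2 fold change, p-value and adjusted p-value. The authors' test is not named in the sources used here. Empty lines (14992) were dropped.

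Counts were tested with edgeR 4.0.16 (R 4.3.3): filterByExpr by group, TMM, glmQLFit and glmQLFTest on group, Benjamini-Hochberg over 12806 genes, 2186 left out. SE is the size of the log2 fold change over the square root of F. The biological coefficient of variation was 25.2%. No pair of libraries was a duplicate (chi-square per degree of freedom at least 29.8). Positions, exon overlaps and near-identical transcripts (megablast 2.17.0, at least 95% over 200 bases) used GENCODE M21 (GRCm38), and promoters RefSeq. The annotation behind the deposited counts is not named. All shares of exon bases are therefore those of GENCODE and may differ in the gene models that were counted. The fit was tested on simulated data.

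Members, lists and tests were chosen with earlier results of these data known. All members could be named; values in every library were set for the members of smallest p up to 14, the Atg8 genes, Ulk1, Becn1, Atg5, Atg7 and Sqstm1, and partner genes were named when called or among the 4 of smallest p in their list. Other per-library values were added after they were seen. The alternatives tried were the Wald test of DESeq2 1.42.0, voom with quality weights in limma 3.58.1, scaling by upper quartile or by DESeq2 size factors, 2 other filters, an adjusted p under 0.10, a block for the replicate number, and leaving out each library.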

Additional observations from a re-analysis of the deposited data

How the results depend on the processing

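With 3 libraries a group, the count of calls moved with the setting more than the values did: 26 of the 35 members kept the sign of their log2 fold change in all 13 alternative fits and 9 did not. All genes called higher and lower numbered 81 and 153 in edgeR over 6 libraries, 628 and 926 by the DESeq2 Wald test, 1374 and 1483 by limma voom with quality weights, and 422 and 634 at an adjusted p under 0.10. Members called higher were 0, 6, 15 and 4 in the same order, and 0 were called lower in each. With each library left out, 0 to 401 genes were called higher, 0 to 633 lower and 0 to 6 members higher, the highest in each case without vehicle 1. Without vehicle 2, 7 genes were called higher and 84 lower, and without vehicle 3 or any of inhibitors 1, 3 and 5 edgeR called 0, where 1832 to 2398 genes still had p below 0.05 before adjustment. Before adjustment, members with higher values and p below 0.05 were 11 in edgeR, 20 with voom and 6 to 16 with a library left out, and those with lower values 1, 2 and 0 to 1. The median of the members ran from 0.18 to 0.27 over all alternatives. Partner genes called higher were 1 in edgeR, 4 by DESeq2, 13 with voom and 0 to 4 with a library left out, and those called lower 0, 2 and 4 in the first 3.

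The replicate numbers 1 and 3 occur in both groups, and the deviations of same-numbered libraries from their group means correlated at -0.44 and -0.05 across genes. The first of these involves vehicle 1, which stood apart, and each group mean rests on few libraries. The correlations therefore cannot decide whether same-numbered libraries were paired. With the replicate number as a block, vehicle 2 and inhibitor 5 have no library of the same number in the other group. That comparison therefore rests on vehicles 1 and 3 and inhibitors 1 and 3 alone. Under it 0 genes were called higher and 7 lower, and 0 partners were called. Before adjustment, 3 members had higher and 0 lower values with p below 0.05. The signs of Atg4b (-0.10), Atg4c (0.19) and Gabarapl1 (-0.024) turned under the block. Under voom the values of Ulk2 (-0.066) and Sqstm1 (0.19) turned. With a library left out, sign changes occurred for Ulk2 (-0.032 to 0.25), Atg2a (-0.090 to 0.50), Atg2b (-0.10 to 0.027), Atg7 (-0.052 to 0.16), Atg10 (-0.11 to 0.15), Atg4b (-0.090 to 0.29), Atg4c (-0.28 to 0.076), Gabarapl1 (-0.028 to 0.27) and Sqstm1 (-0.23 to 0.18). The cause was not tested.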
